A study of Homo sapiens with 11 samples.

Results

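Hep-G2 cells, a line derived from a human hepatoblastoma, were set against 4 human tumour-derived lines of other organs: the lung adenocarcinoma line A-549, the ovarian clear cell adenocarcinoma line ES-2, the amelanotic melanoma line MV3 and the pancreatic ductal adenocarcinoma line PANC-1. The comparison used the 2 Hep-G2 libraries and the 7 NEXTflex libraries of the other lines, 9 of the 11 small RNA libraries of the series, and it asked which miRNAs set the liver line apart. PANC-1 had 1 library and each other line 2, all from parental cells that had received no siRNA and were harvested 48 h upon seeding. Novogene prepared the Hep-G2 libraries. A NEXTflex kit was used for A-549, ES-2, MV3 as well as PANC-1, and these were sequenced at another site and read length. Preparation and cell line can therefore not be told apart in any value that sets Hep-G2 against the other 4 lines, and no batch holds libraries of both. BE(2)-C, a neuroblastoma line harvested after 24 h, is the only other line prepared by Novogene, and its values are given beside those of Hep-G2 without entering a test. Of 2588 mature miRNAs, 470 had a mean of at least 10 CPM (the reads of a miRNA scaled to 1000000 miRNA reads in each library) in at least 1 of the 5 lines and were compared. Just inside this limit were miR-3935 and miR-181c-3p, each with a highest line mean of 10.2 CPM, and just outside were miR-4517 with 9.96 CPM and miR-24-1-5p with 9.91 CPM.

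MiRNAs are short RNAs that are cut from hairpin precursors and guide Argonaute proteins to partly complementary sites, mostly in 3' untranslated regions, where they lower mRNA stability and translation. Target choice rests largely on the seed near the 5' end, so miRNAs with the same seed are counted as a family. A hairpin can release a 5p and a 3p product, of which usually the more abundant is retained. Liver is known for miR-122, which makes up most of the miRNA pool of hepatocytes, and for miR-148a, miR-192 and miR-194, the last pair under control of hepatocyte nuclear factors.

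The mature sequences that carry the comparison are printed from RefSeq (GRCh38.p14), in which 426 of the 470 miRNAs had an entry, with the seed (bases 2 to 8) in capitals. The miRNAs in the following lines were higher in Hep-G2 and are ordered by family, with miR-192-5p and miR-215-5p sharing the seed UGACCUA, miR-200b-3p, miR-200c-3p and miR-429 the seed AAUACUG, and miR-200a-5p and miR-200b-5p the seed AUCUUAC.
miR-148a-3p: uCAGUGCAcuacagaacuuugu
miR-192-5p: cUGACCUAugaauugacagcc
miR-215-5p: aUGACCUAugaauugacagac
miR-200b-3p: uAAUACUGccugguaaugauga
miR-200c-3p: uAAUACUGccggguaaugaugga
miR-429: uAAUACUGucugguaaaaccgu
miR-200a-5p: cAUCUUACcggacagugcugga
miR-200b-5p: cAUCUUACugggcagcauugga
miR-146b-5p: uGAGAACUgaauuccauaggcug
miR-455-5p: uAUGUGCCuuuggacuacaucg

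The next lines give miRNAs that were far lower in Hep-G2, with let-7a-5p and let-7b-5p sharing the seed GAGGUAG, and miR-122-5p as the hepatocyte marker whose level is examined below.
let-7a-5p: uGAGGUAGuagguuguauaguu
let-7b-5p: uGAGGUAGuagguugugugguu
miR-31-5p: aGGCAAGAugcuggcauagcu
miR-125b-5p: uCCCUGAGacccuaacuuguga
miR-100-5p: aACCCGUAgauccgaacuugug
miR-10a-5p: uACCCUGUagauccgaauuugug
miR-30a-5p: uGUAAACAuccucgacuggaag
miR-23a-3p: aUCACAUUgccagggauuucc
miR-122-5p: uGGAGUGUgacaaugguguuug

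The Hep-G2 libraries were dominated by miR-148a-3p, which has been linked to hepatocyte differentiation. It accounted for 75.3% and 72.6% of miRNA reads in Hep-G2, or 752841 and 725599 CPM, against 6.61 to 25.5 CPM with a median of 16.8 CPM in the 7 NEXTflex libraries. BE(2)-C had 4230 and 1311 CPM. MiR-21-5p, an oncogenic miRNA and the most abundant in each of the 4 NEXTflex lines, followed in Hep-G2 with 166574 and 189665 CPM. In each library the reads of the top 10 miRNAs were added up. They made up 96.4% and 96.1% in Hep-G2, still 86.1% and 86.6% once miR-148a-3p was taken out of the total, and 69.3% to 81.9% in the NEXTflex libraries.

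**Figure D1:**
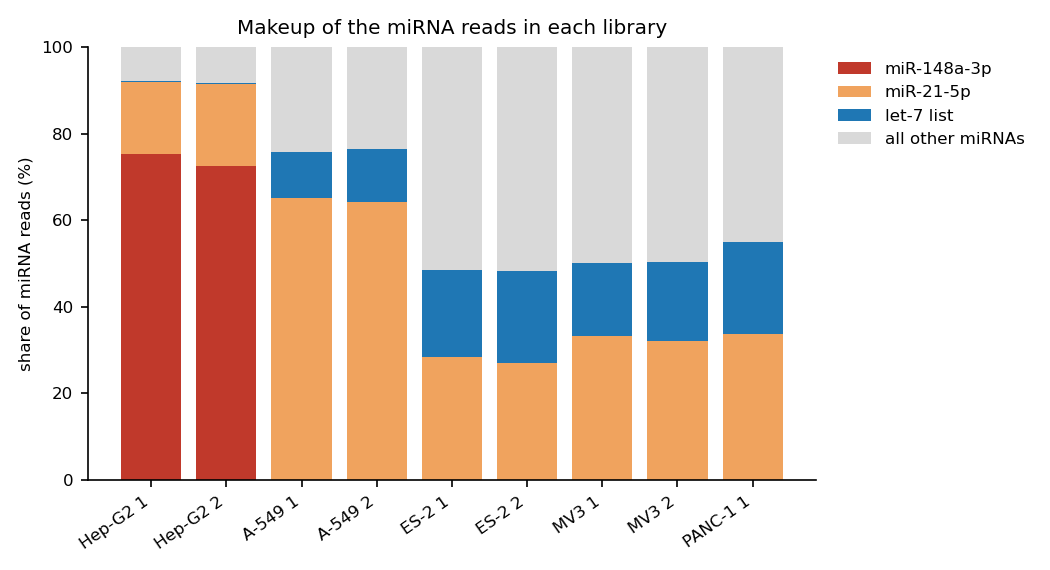
Share of miRNA reads (y axis, percent) of miR-148a-3p, miR-21-5p, the 18 tested members of the let-7 list and all other miRNAs, as stacked bars for each of the 9 libraries (x axis). MiR-148a-3p fills 75.3% and 72.6% of the Hep-G2 bars and cannot be seen in the others, and the let-7 list takes 0.156% and 0.171% in Hep-G2 against 10.6% to 21.4% elsewhere.

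Because CPM sums to the same total in every library, such a share lowers the CPM of all other miRNAs. Values were therefore compared on 3 scales, namely CPM, CPM with miR-148a-3p out of every total, and CPM with TMM factors (trimmed mean of M-values, a scaling by the bulk of miRNAs) computed over the 9 libraries. The TMM factors were 0.187 and 0.230 for Hep-G2 and 1.09 to 2.10 for the NEXTflex libraries. The Hep-G2 libraries were deep, with 11880964 and 12137452 miRNA reads and still 2936492 and 3330527 without miR-148a-3p, against 1173902 to 9746838 in the NEXTflex libraries. A count of 0 thus allowed up to 3 reads, or 0.253 and 0.247 CPM, in Hep-G2 and 0.308 to 2.56 CPM in the others, which covers counting error only. Differences are given as Hep-G2 minus the mean of the 4 line means on the log2(CPM + 1) scale, with standard errors and adjusted p-values from limma.

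On CPM, 437 of 470 miRNAs passed an adjusted p of 0.05 (93.0% called), of which 66 (14.0%) were higher and 371 (78.9%) lower in Hep-G2, and the median difference over all 470 was -2.44. With miR-148a-3p out of every total, 403 (85.7%) were called, of which 113 (24.0%) were higher and 290 (61.7%) lower with a median of -1.57. With TMM factors, 395 (84.0%) were called, of which 150 (31.9%) were higher and 245 (52.1%) lower with a median of -0.89. Of the 470, 166 reached 10 CPM in Hep-G2 itself, and the others passed the limit only through a NEXTflex line. This favours a lower call for them, here and in the list counts below. In Hep-G2, 64 of the 470 had no read, and with these at the floor of 3 reads the medians were -2.37, -1.23 and -0.54 on the 3 scales. Irrespective of the scale, 66 miRNAs were called higher and 245 lower in Hep-G2, while 60 were called lower on CPM and higher with TMM factors. Both Hep-G2 libraries lay above all 7 NEXTflex libraries for 43 miRNAs (9.15%) on CPM, 82 (17.4%) with miR-148a-3p out of every total and 113 (24.0%) with TMM factors. They lay below all of them for 46.6%, 31.5% and 24.3% on the 3 scales.

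These p-values rest on the spread between the 2 libraries of a line, which may be technical, and not on the spread between lines. When the 5 line means were taken as samples, so that Hep-G2 had to differ by more than the other lines differ among themselves, 78 miRNAs were called on CPM (16.6%; 9 higher, 69 lower) and 61 with TMM factors (13.0%; 38 higher, 23 lower).

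**Figure D2:**
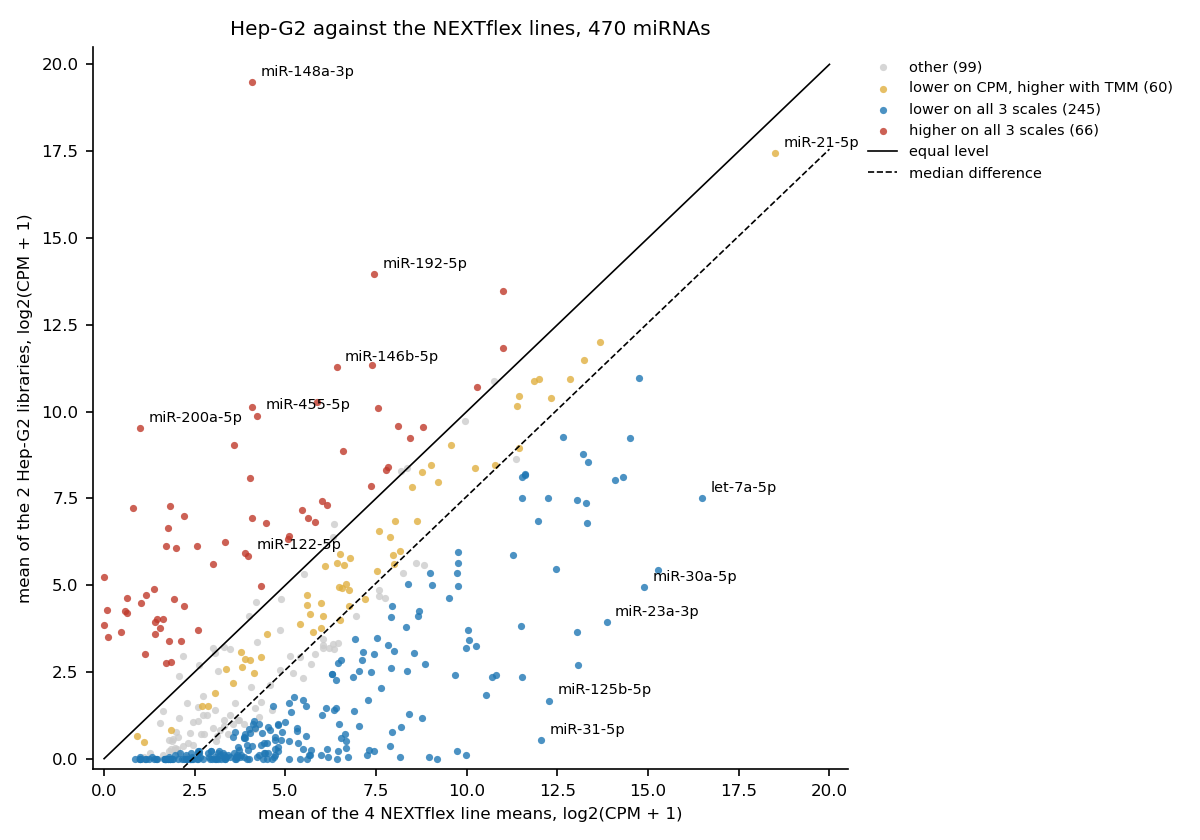
Mean level of the 470 miRNAs in Hep-G2 (y axis) against the mean of the 4 NEXTflex line means (x axis), both as log2(CPM + 1), with 1 point per miRNA. The dashed line lies at the median difference of -2.44 below the line of equal level. MiR-148a-3p at the top belongs to the 66 miRNAs (red) that were higher on all 3 scales and stands apart from the rest of them.

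The label of Hep-G2 was checked against markers of hepatocytes and of other cell types. MiR-122-5p, the defining hepatocyte miRNA, was read at only 64.0 and 50.0 CPM in Hep-G2, above the range of 1.94 to 45.1 CPM in the NEXTflex libraries but far below miR-148a-3p. BE(2)-C had 823 and 5.96 CPM, so the 2 libraries of that line differed by more than Hep-G2 did from MV3. Its other arm, miR-122-3p, and miR-802 had no read in Hep-G2, and miR-885-5p was at 1.85 and 2.39 CPM. Of the 7 hepatocyte markers, only miR-148a-3p and miR-192-5p were thus abundant in Hep-G2, and miR-194-5p was intermediate with 219 and 240 CPM.

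Most markers of blood, mesenchymal, neuronal and muscle cells were at a few CPM or below in Hep-G2, with exceptions given here. Epithelial markers were not: miR-200b-3p was at 1219 and 1276 CPM, and miR-200a-3p, miR-200c-3p and miR-429 were at 62.5 CPM or above. Only miR-141-3p among them was near 0. Of 6 blood markers the highest was miR-451a with 4.12 and 3.46 CPM, and miR-223-3p and miR-144-3p had no read. The mesenchymal markers miR-199a-3p, miR-199a-5p and miR-214-3p were at 6.14 CPM or below, although miR-143-3p reached 2702 and 2519 CPM and its cluster mate miR-145-5p 21.3 and 25.1 CPM. Among neuronal markers miR-124-3p had no read in Hep-G2 replicate 1 and 0.165 CPM in replicate 2, whereas miR-128-3p was at 1908 and 1851 CPM, within the range of 689 to 2938 CPM of the NEXTflex libraries. Of 3 muscle markers miR-1-3p was at 122 and 100 CPM and the others at 0.168 CPM or below. In RNA from a whole culture, a low level in all cells cannot be told apart from a high level in few cells.

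The liver list held 7 miRNAs above the limit, of which 6 were called higher and none lower on all 3 scales, against 14.0% higher and 52.1% lower over all 470 miRNAs. The list held 13 mature miRNAs in all, and those below the limit, 3 of them without a read in Hep-G2, could not count against it. MiR-148a-5p passed the limit only through Hep-G2, and the 7 include both arms of miR-148a and of miR-194. Its median difference was 4.08 on CPM and 6.63 with TMM factors, against -2.44 and -0.89 over all miRNAs. The difference of miR-148a-3p was 15.42 ± 0.36 on CPM (SE, adjusted p = 1.15e-07, limma) and 18.32 with TMM factors, and it was among the miRNAs called when line means were the samples (adjusted p = 0.0027). Its hairpin lies at chr7:25949919-25949986 (GRCh38, minus strand) in an intron of a lncRNA. The other arm of this hairpin, miR-148a-5p, was read at 145 and 152 CPM in Hep-G2 and at 0 to 5.85 CPM with a median of 0 CPM in the NEXTflex libraries. MiR-148b-3p, which has the same seed but comes from chromosome 12, reached 1597 and 1750 CPM against 755 to 1900 CPM, so the groups overlapped on CPM for this family member.

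MiR-192-5p, a target of HNF1 and HNF4 in liver and gut, was at 15552 and 16165 CPM in Hep-G2. A-549 came next with 2874 and 2585 CPM, while ES-2, MV3 and PANC-1 lay between 54.5 and 101 CPM. The difference was 6.51 ± 0.10 on CPM (SE, adjusted p = 2.50e-08, limma), but with line means as samples the adjusted p was 0.13, since A-549 stood apart from the other NEXTflex lines. BE(2)-C had 1288 and 578 CPM. MiR-215-5p, which shares its seed, was at 57.9 and 74.3 CPM in Hep-G2 and up to 29.1 CPM in the NEXTflex libraries, with a difference of 4.08 ± 0.52. It was far higher in BE(2)-C, with 2346 and 2515 CPM.

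MiR-194-5p is made from the same transcript as miR-192-5p (hairpins at chr11:64891137-64891246 and chr11:64891355-64891439, minus strand, both in an exon of MIR194-2HG) and from a copy beside miR-215 on chromosome 1. Yet it was read at only 219 and 240 CPM in Hep-G2, below both A-549 libraries with 1883 and 1899 CPM. On CPM it was called higher by 0.48 ± 0.10 (SE, adjusted p = 0.0033, limma), and without the PANC-1 library the difference of 0.19 was no longer called. Its passenger arm miR-194-3p, with 14.6 and 17.8 CPM in Hep-G2, 96.6 CPM in A-549 replicate 1 and as little as 4.82 CPM in PANC-1, was the list member not called on CPM (difference 0.11, adjusted p = 0.80, limma). MiR-122-5p differed by 1.87 ± 0.66 on CPM (SE, adjusted p = 0.034, limma), a call that was lost when either Hep-G2 library was left out (adjusted p = 0.17 without replicate 1 and 0.11 without replicate 2) and, among the NEXTflex libraries, when any single library of A-549 or MV3 was (adjusted p between 0.056 and 0.078).

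The ratio of miR-192-5p to miR-194-5p within a library does not depend on its total. It was 71.0 and 67.2 in Hep-G2 and 0.612 to 1.53 in the 7 NEXTflex libraries, with 8.06 and 2.24 in BE(2)-C. This ratio and the other ratios between cluster members given further on were chosen after the values were seen and carry no test. The products of this cluster were thus read in very unequal amounts in Hep-G2 and in nearly equal amounts in the NEXTflex lines.

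Among the 21 miRNAs that were higher on all 3 scales, had both Hep-G2 libraries above all 7 NEXTflex libraries on each scale and reached 100 CPM in a line, the 12 with the largest CPM difference were examined in each library. Besides miR-148a and miR-192-5p, these were miR-200a-5p, miR-941, miR-455-5p, miR-548o-3p, miR-582-3p, miR-146b-5p, miR-1269b, miR-200b-3p and miR-143-3p. The remaining 9, led in level by miR-151a-3p, differed by 0.78 to 2.86 on CPM. For comparison, 43 of all 470 miRNAs (9.15%) had both Hep-G2 libraries above all NEXTflex libraries on every scale. Among the 5 lines, both arms of miR-148a, miR-200a-5p, miR-941, miR-455-5p, miR-548o-3p, miR-582-3p and miR-1269b reached 100 CPM only in Hep-G2. This limit therefore favours miRNAs that are high in Hep-G2. MiR-548o-3p passed even the 10 CPM limit only through Hep-G2. With line means as samples, 6 of the 12 were called on CPM and 7 with TMM factors, against 16.6% and 13.0% over all 470 miRNAs. As the 12 were chosen for large differences in the same libraries, these counts give no separate support.

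**Figure D3:**
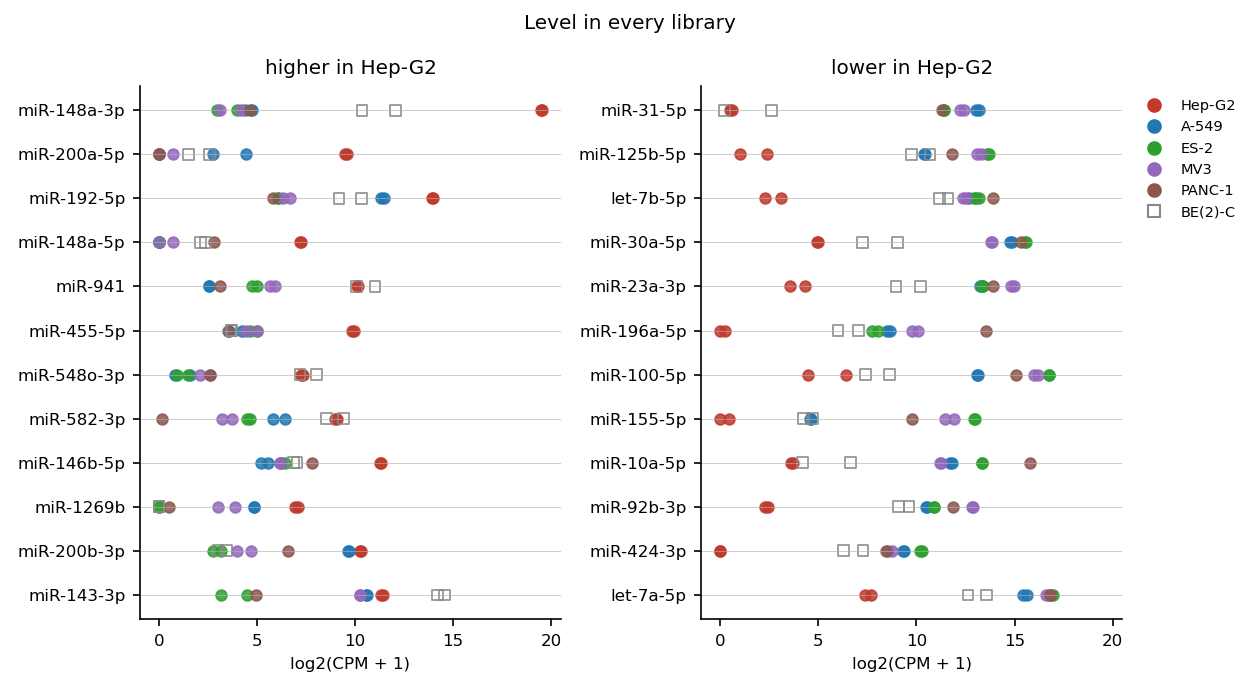
Level of the 12 miRNAs with the largest difference in each direction (y axis) as log2(CPM + 1) (x axis), with 1 filled point per library of the 5 lines and open squares for the 2 BE(2)-C libraries, which entered no test. For miR-148a-3p the Hep-G2 points stand at 752841 and 725599 CPM, far right of all others, and for miR-31-5p they lie below 1 CPM.

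The miR-200 family keeps epithelial cells from mesenchymal transition by repressing ZEB1 and ZEB2. MiR-200b-3p was at 1219 and 1276 CPM in Hep-G2, at 794 and 833 CPM in A-549 and at 93.2 CPM or below in ES-2, MV3 and PANC-1. It differed by 4.41 ± 0.22 on CPM (SE, adjusted p = 3.81e-06, limma), but Hep-G2 and A-549 were close to each other, and with line means as samples the adjusted p was 0.31. Its hairpin lies at chr1:1167104-1167198 and that of miR-429 at chr1:1169005-1169087 (plus strand, outside annotated genes). MiR-429 was at 62.5 and 74.6 CPM in Hep-G2 and at 76.8 and 49.0 CPM in A-549, so these lines overlapped.

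MiR-200a showed a different pattern for its arms. The 5p product was at 760 and 714 CPM in Hep-G2, at 20.2 and 5.82 CPM in A-549 and at 0.645 CPM or below in the other 5 NEXTflex libraries, a difference of 8.54 ± 0.47 on CPM (SE, adjusted p = 6.83e-06, limma). The 3p product, with 68.6 and 69.9 CPM in Hep-G2, did not exceed A-549, which had 71.9 and 80.6 CPM. MiR-200c-3p from chromosome 12 was at 83.2 and 75.9 CPM against 14.5 to 61.6 CPM, while its cluster mate miR-141-3p was below 0.17 CPM in Hep-G2. In BE(2)-C all of these miRNAs were at 26.6 CPM or below.

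Of the 13 tested members of the epithelial list, 6 were higher and 1 lower in Hep-G2 on all 3 scales, against 14.0% higher and 52.1% lower over all 470 miRNAs. MiR-182-5p and miR-183-5p, abundant members of a cluster on chromosome 7, changed direction with the scale. MiR-182-5p was at 1907 and 2042 CPM in Hep-G2 and 2511 to 6314 CPM in the NEXTflex libraries, which was 1.04 lower on CPM and 1.92 higher with TMM factors on the log2 scale.

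MiR-146b-5p, an NF-kappaB-induced brake on inflammatory signalling, was at 2424 and 2576 CPM in Hep-G2, against 35.6 to 219 CPM with a median of 71.6 CPM in the NEXTflex libraries and 114 and 129 CPM in BE(2)-C. The difference was 4.87 ± 0.12 on CPM (SE, adjusted p = 1.46e-07, limma) and 7.83 ± 0.14 with TMM factors, and it was called with line means as samples (adjusted p = 0.042 on CPM). Its hairpin at chr10:102436512-102436584 (plus strand) overlaps no annotated gene. MiR-155-5p, which is induced in inflammation as well, was lower on all 3 scales, but with line means as samples its adjusted p was 0.11 on CPM and 0.16 with TMM factors (limma). In Hep-G2 it had 4 reads in replicate 1 and none in replicate 2, against 22.8 to 8043 CPM in the NEXTflex libraries, with A-549 lowest and ES-2 highest.

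MiR-455-5p, whose hairpin (chr9:114209434-114209529, plus strand) lies in an intron of the collagen gene COL27A1, was at 910 and 974 CPM in Hep-G2 and at 10.4 CPM at the lowest, with a median of 20.4 CPM, in the NEXTflex libraries. BE(2)-C had 11.7 and 12.2 CPM. The difference of 5.66 ± 0.25 on CPM (SE, adjusted p = 2.42e-06, limma) was also called with line means as samples (adjusted p = 0.026). MiR-1269b, from an intron of ARHGAP44 on the opposite strand, was at 132 and 120 CPM in Hep-G2, at 27.7 CPM or below in the NEXTflex libraries and at 0 in BE(2)-C.

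Other miRNAs of this group were also abundant in BE(2)-C. MiR-941, from several copies within the DNAJC5 gene on chromosome 20, was at 1115 and 1109 CPM in Hep-G2 and at 2051 and 1073 CPM in BE(2)-C, against 4.85 to 58.1 CPM in the NEXTflex libraries. MiR-548o-3p was at 150 and 162 CPM in Hep-G2, 261 and 145 CPM in BE(2)-C and at most 5.11 CPM in the NEXTflex libraries. MiR-582-3p, from an intron of PDE4D, was at 537 and 509 CPM in Hep-G2, 679 and 369 CPM in BE(2)-C and at most 84.3 CPM elsewhere. For miR-143-3p, a miRNA of smooth muscle and fibroblasts, Hep-G2 had 2702 and 2519 CPM, BE(2)-C 23979 and 18824 CPM, and A-549 and MV3 between 1197 and 1553 CPM. The part of the preparation in these differences was not tested.

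Of the compared set, 2 miRNAs were read in Hep-G2 and in no NEXTflex library. These were miR-578 with 39.0 and 34.0 CPM and miR-618 with 12.5 and 14.3 CPM, both chosen after their values were seen. MiR-618 was also read in BE(2)-C, at 30.3 and 61.3 CPM. MiR-483-5p and miR-483-3p, which are encoded in an intron of the fetal growth factor gene IGF2, were at 96.2 and 103 CPM and at 41.2 and 55.4 CPM in Hep-G2, against at most 13.3 and 25.2 CPM in the NEXTflex libraries. Their differences on CPM were 4.90 ± 0.93 and 2.61 ± 0.73 (SE), and the call of miR-483-3p was lost without either Hep-G2 library (adjusted p = 0.066 without replicate 1 and 0.097 without replicate 2, limma). Both arms were higher still in BE(2)-C, between 409 and 806 CPM. MiR-675-5p, from the neighbouring H19 gene, had no read in Hep-G2 or in any NEXTflex library but that of PANC-1, with 14.4 CPM, through which alone it passed the 10 CPM limit.

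Of the 10 most abundant miRNAs of Hep-G2, 3 changed direction with the scale. MiR-21-5p was at 166574 and 189665 CPM in Hep-G2 and 270352 to 650347 CPM in the NEXTflex libraries, 1.07 lower on CPM and 1.89 higher with TMM factors on the log2 scale. MiR-30d-5p was 1.68 lower on CPM and 1.29 higher with TMM factors, and miR-26a-5p 1.74 lower and 1.22 higher. MiR-151a-3p, with 11622 and 11165 CPM in Hep-G2 against 1159 to 3955 CPM, was higher on all scales, and so was miR-7-5p with 3490 and 3838 CPM against 1080 to 4530 CPM, although its groups overlapped on CPM. Both were higher in BE(2)-C than in Hep-G2, at 41479 and 15542 CPM for miR-151a-3p and 68724 and 35823 CPM for miR-7-5p. MiR-92a-3p, at 1825 and 2212 CPM, was lower on all scales, by 3.76 on CPM and 0.80 with TMM factors.

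In the opposite direction, 78 miRNAs were lower on all 3 scales with both Hep-G2 libraries below all 7 NEXTflex libraries on each scale and at least 100 CPM in a line, where 114 of all 470 (24.3%) had such non-overlapping libraries. The 12 largest differences on CPM were those of miR-31-5p, miR-125b-5p, let-7b-5p, miR-30a-5p, miR-23a-3p, miR-196a-5p, miR-100-5p, miR-155-5p, miR-10a-5p, miR-92b-3p, miR-424-3p and let-7a-5p. With line means as samples, 11 of these 12 were called on CPM and 9 with TMM factors. Over all 470 miRNAs the shares were 16.6% and 13.0%. The 12 were chosen for large differences in the same libraries, so their calls give no separate support. The other 66 differed by -8.90 to -3.52 on CPM and by -8.01 to -0.62 with TMM factors.

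MiR-31-5p, a regulator of invasion and metastasis encoded in an intron of MIR31HG (chr9:21512115-21512185, minus strand), had 5 and 6 reads in the Hep-G2 libraries, or 0.421 and 0.494 CPM. In the NEXTflex libraries it was at 2560 to 9286 CPM with a median of 4698 CPM, and in BE(2)-C at 5.05 and 0.153 CPM. The difference of -11.50 ± 0.08 on CPM (SE, adjusted p = 1.12e-09, limma) was the largest decrease in this group and was called with line means as samples (adjusted p = 0.0037). Its passenger arm miR-31-3p had no read in Hep-G2 and 5.75 to 37.5 CPM in the NEXTflex libraries.

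MiR-424-3p, from a cell cycle-linked cluster on the X chromosome, had no read in Hep-G2 and 349 to 1243 CPM in the NEXTflex libraries. Set against 3 reads per library, it was at least 2576-fold lower than the mean of the NEXTflex lines on CPM and at least 325-fold lower with TMM factors. MiR-196a-5p had 2 reads in Hep-G2, both in replicate 1, against 11978 CPM in PANC-1 and 209 to 1088 CPM in the other 6 NEXTflex libraries. With line means as samples its adjusted p was 0.042 on CPM and 0.053 with TMM factors (limma).

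The HOX clusters pattern the body axis and encode several miRNAs. Of 7 tested, 6 were lower and none higher on all 3 scales, against 14.0% higher and 52.1% lower over all 470 miRNAs, and the remaining member, miR-10b-5p, was lower on CPM and higher with TMM factors. Only 2 of the 7 reached 10 CPM in Hep-G2, and the others were tested only because a NEXTflex line was high. MiR-10a-5p, from the HOXB cluster (chr17:48579838-48579947, minus strand, in an intron of HOXB3), was at 10.9 and 11.9 CPM in Hep-G2. The NEXTflex lines held very different levels, from 2376 CPM in MV3 to 56313 CPM in PANC-1, and the difference on CPM was -9.39 ± 0.06 (SE, adjusted p = 7.74e-10, limma). MiR-615-3p from the HOXC cluster was at 1.09 and 0.412 CPM against 43.2 to 1965 CPM. MiR-196a-5p comes from the HOXB and HOXC clusters, in introns of HOXB7 and HOXC6.

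The let-7 family, which restrains RAS, MYC and the oncofetal proteins LIN28 and IGF2BP1, held a small share of the Hep-G2 reads. Of 18 tested members of the list, 16 were lower and none higher on all 3 scales, against 14.0% higher and 52.1% lower over all 470 miRNAs, and the summed level was 1556 and 1713 CPM in Hep-G2 against 106061 to 214230 CPM in the NEXTflex libraries. Of the 18, 6 reached 10 CPM in Hep-G2, and the others were tested only because a NEXTflex line was high. Let-7a-5p was at 163 and 202 CPM in Hep-G2, 44945 and 51642 CPM in A-549, 119422 and 127669 CPM in ES-2, 100942 and 109876 CPM in MV3 and 116052 CPM in PANC-1. It differed by -8.99 ± 0.11 on CPM (SE, adjusted p = 8.58e-09, limma) and by -6.03 ± 0.08 with TMM factors. BE(2)-C lay between, with 6315 and 12209 CPM.

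The members of let-7 were not lowered evenly. Let-7b-5p was at 7.58 and 3.87 CPM in Hep-G2 against 5268 to 15550 CPM, a difference of -10.38 on CPM. Let-7g-5p, at 358 and 382 CPM against 5473 to 15617 CPM, differed by only -4.81, and let-7f-5p and let-7i-5p by -5.26 and -6.06. The most abundant let-7 member in Hep-G2 was thus let-7f-5p, with 551 and 655 CPM, whereas in each NEXTflex line it was let-7a-5p. These members differ by few bases, and how reads that match several of them were counted is not given in the sources used here.

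MiR-100 and miR-125b, which share the MIR100HG transcript with a let-7a copy on chromosome 11, were also low. MiR-100-5p (chr11:122152229-122152308, minus strand) was at 84.0 and 21.3 CPM in Hep-G2, so that its libraries differed, and at 8668 to 111540 CPM in the NEXTflex libraries. MiR-125b-5p was at 4.12 and 0.989 CPM against 1353 to 13240 CPM, with a difference of -10.60 ± 0.33 on CPM (SE, adjusted p = 4.25e-07, limma). MiR-125a-5p, from chromosome 19, was at 37.8 and 49.5 CPM against 3557 to 8979 CPM. Of 10 tested members of the miR-99, miR-100 and miR-125 list, 4 of which reached 10 CPM in Hep-G2, 8 were lower and none higher on all 3 scales, against 14.0% higher and 52.1% lower over all 470 miRNAs.

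The miR-30 family, which is highly expressed in differentiated epithelia, held members at very different levels. MiR-30a-5p, from an intron of LINC00472 (chr6:71403551-71403621, minus strand), was at 29.0 and 30.9 CPM in Hep-G2 and at 14463 to 48886 CPM in the NEXTflex libraries, while BE(2)-C had 524 and 149 CPM. The difference was -9.94 ± 0.05 on CPM (SE, adjusted p = 7.74e-10, limma). MiR-30c-5p, at 157 and 211 CPM against 2661 to 8169 CPM, differed by -4.72. Of 10 tested members of the list 5 were lower and 2 higher on all 3 scales, shares close to the 52.1% and 14.0% over all miRNAs, and miR-30d-5p, the most abundant in Hep-G2, was among those whose direction changed.

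MiR-23a-3p, at 10.8 and 19.1 CPM in Hep-G2, 9614 to 31785 CPM in the NEXTflex libraries and 495 and 1192 CPM in BE(2)-C, is cut from the same transcript as miR-27a-3p and miR-24-3p. MiR-27a-3p was at 186 and 179 CPM against 1851 to 4960 CPM. The ratio of miR-23a-3p to miR-27a-3p within a library was 0.0580 and 0.107 in Hep-G2, 4.29 to 7.40 in the NEXTflex libraries, and 0.398 and 0.383 in BE(2)-C. The ratio of miR-24-3p, which also has a copy on chromosome 9, to miR-27a-3p was 2.46 and 2.33 in Hep-G2 and 1.71 to 4.72 in the NEXTflex libraries. Relative to miR-27a-3p, miR-23a-3p thus lay outside the range of the NEXTflex libraries and miR-24-3p within it.

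MiR-222-3p over miR-221-3p was 1.64 and 1.74 in Hep-G2 and 1.45 to 2.67 in the NEXTflex libraries, while both miRNAs, which repress the cell cycle inhibitor p27, were lower on all scales. MiR-222-3p was at 241 and 311 CPM against 7784 to 57520 CPM, and miR-221-3p at 179 CPM or below against 4103 to 24876 CPM. MiR-17-5p over miR-92a-3p, from the proliferation-linked miR-17-92 cluster, was 0.0538 and 0.0592 in Hep-G2, 0.0101 to 0.0193 in the NEXTflex libraries and 0.0923 and 0.224 in BE(2)-C. Of 18 tested members of miR-17-92 and its paralogs, 10 were lower and none higher on all 3 scales, so that the lower share was close to the 52.1% over all miRNAs.

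Among the remaining families, all 10 tested members of the miR-15 and miR-16 list, which restrains cyclins and BCL2, were lower on all 3 scales, against 52.1% over all miRNAs. Only 2 of these 10 reached 10 CPM in Hep-G2. The others passed the limit only through a NEXTflex line, so their lower call follows in large part from the limit. MiR-16-5p was at 14.1 and 12.2 CPM in Hep-G2 against 1527 to 3890 CPM and differed by -7.68 ± 0.08 (SE, adjusted p = 6.32e-09, limma), and miR-15b-5p was at 8.67 and 8.32 CPM against 521 to 1985 CPM. BE(2)-C had 184 and 406 CPM of miR-16-5p. Of 9 tested members of the miR-181 list, 2 of which reached 10 CPM in Hep-G2, 8 were lower, with miR-181a-5p at 12.7 and 11.2 CPM against 716 to 1607 CPM. Of 6 tested members of the miR-29 list, repressors of collagens, 3 reached 10 CPM in Hep-G2. Of the 6, 5 were lower and 1 higher, with miR-29a-3p at 105 and 112 CPM against 3764 to 25637 CPM.

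The 58 tested miRNAs of the imprinted DLK1-DIO3 cluster on chromosome 14 passed the 10 CPM limit through other lines, as 58 reached it in PANC-1, 46 in A-549, 8 in MV3 and none in ES-2 or Hep-G2, where 25 had no read. A count of lower members would follow from this limit and is not given. Summed over the list, Hep-G2 had 25.8 and 22.7 CPM. The NEXTflex libraries spanned 6.61 CPM in ES-2 replicate 1 to 32357 CPM in PANC-1, so the groups overlapped in the sum, and the ES-2 libraries themselves differed, with 81.0 CPM in replicate 2. BE(2)-C had 442555 and 430583 CPM. MiR-369-3p had 2 reads in Hep-G2, both in replicate 2, and ranged from 4.81 to 2368 CPM in the NEXTflex libraries, and miR-493-5p was at 0.168 and 0.247 CPM against 0 to 5786 CPM. None of the 4 members of the list with the highest level over the 5 lines was called with line means as samples (adjusted p between 0.22 and 0.46 on CPM).

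Of 8 tested members of the mesenchymal list, 4 were higher and 3 lower on all 3 scales, against 14.0% higher and 52.1% lower over all 470 miRNAs. MiR-199a-3p, a miRNA of fibroblasts that is also abundant in normal liver, was at 6.14 and 4.28 CPM in Hep-G2, close to A-549 with 6.74 and 3.88 CPM and PANC-1 with 14.4 CPM, whereas ES-2 and MV3 had 4039 to 8771 CPM. The groups therefore overlapped, and with line means as samples the adjusted p was 0.46. MiR-199b-3p has the same mature sequence, so the split of reads between them is uncertain. MiR-34a-5p, a p53 target, was at 54.6 and 65.4 CPM, below A-549 with 265 and 268 CPM close to PANC-1 with 67.6 CPM and above ES-2 and MV3 with at most 3.61 CPM, whereas miR-34c-5p was at 0.337 and 0.412 CPM.

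The other lists are given as counts on all 3 scales, to be read against the 14.0% of all 470 miRNAs that were higher and the 52.1% that were lower. Of 4 inflammation-linked miRNAs 2 were higher and 1 lower on all 3 scales, of 5 miRNAs from host genes of lipid metabolism 1 was higher and none lower, and none of the 6 tested members of the miR-26 and miR-101 list kept a direction. MiR-378a-3p, from an intron of the metabolic regulator PPARGC1B, was the member of the lipid list that was higher, at 647 and 560 CPM against 138 to 693 CPM. None of the 4 tested blood miRNAs reached 10 CPM in Hep-G2, so a count of lower members would largely follow from this limit and is not given. Of 7 neuronal miRNAs, 2 of which reached 10 CPM in Hep-G2, 4 were lower and none higher. Among the lower ones was miR-218-5p at 6.73 and 7.83 CPM against 110 to 1912 CPM in the NEXTflex libraries and 68764 and 88238 CPM in BE(2)-C. Of 10 tested members of the miR-23, miR-27 and miR-24 list 7 were lower, of 4 of the miR-221 and miR-222 list 3, of 4 of the miR-21 and miR-31 list 3, and of 5 of the miR-34 and miR-449 list 4, with 1 higher in the last. In this order, 7, 3, 2 and 1 of the tested members reached 10 CPM in Hep-G2. The 2 tested muscle miRNAs split, with 1 in each direction. No member of the miR-302 and miR-371 list, the placental cluster on chromosome 19 or the pancreatic list reached the limit in any of the 5 lines.

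**Figure D4:**
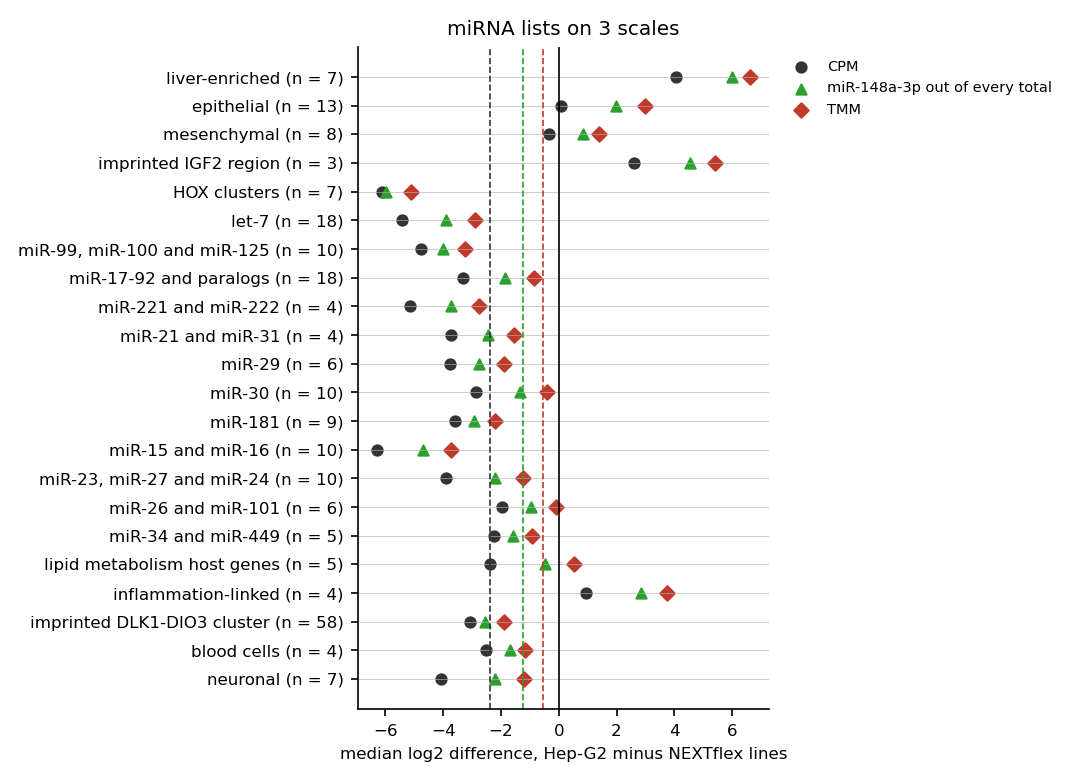
Median log2 difference between Hep-G2 and the NEXTflex lines (x axis) of each list with at least 3 tested members (y axis, number tested in brackets) on CPM (circles), with miR-148a-3p out of every total (triangles) and with TMM factors (diamonds), with miRNAs that had no read in Hep-G2 set at 3 reads per library. The dashed lines mark the median over all 470 miRNAs on each scale (-2.37, -1.23 and -0.54), and the liver list lies right of them at 4.08 on CPM while the miR-15 and miR-16 list lies left at -6.29.

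The tested miRNAs were then grouped by seed rather than by list. Over all 470, 14.0% were higher and 52.1% lower on all 3 scales. The 9 tested miRNAs with the let-7 seed GAGGUAG had a summed mean of 1606 CPM in Hep-G2 and 176614 CPM in the NEXTflex lines. All 9 were lower on all 3 scales. The same held for the 6 miRNAs with the seed AGCAGCA of miR-15 and miR-16 (23.1 against 4849 CPM), the 4 with the miR-181 seed ACAUUCA (22.0 against 2208 CPM) and the 3 with the miR-29 seed AGCACCA (119 against 13051 CPM). At sums of 23.1 and 22.0 CPM in Hep-G2, not every miR-15, miR-16 and miR-181 member reached the CPM limit there. Those that did not passed it only through a NEXTflex line, which favours a lower call. Higher on all 3 scales were the 3 with the seed AAUACUG of the miR-200 family (1396 against 286 CPM). So were the 3 with the miR-378 seed CUGGACU (642 against 402 CPM) and the pair with the miR-192 seed UGACCUA (15925 against 743 CPM). On CPM, however, miR-429 and miR-378a-3p overlapped with the NEXTflex libraries, and A-549 held 794 and 833 CPM of miR-200b-3p. Of the 3 with the miR-148 seed CAGUGCA, 2 were higher, and together they amounted to 740955 CPM in Hep-G2 against 1678 CPM. These seeds are a selection, and others were uniform or mixed. All 4 tested miRNAs with the seed GUGAUAU were lower on all 3 scales. Of 5 with the seed AAAGUGC, 1 was lower and none higher. Of 5 with the seed AUUGCAC, 2 were lower and 1 higher.

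The median GC content was 47.8% over the 426 miRNAs with a RefSeq sequence, 47.6% for 57 that were higher and 45.5% for 228 that were lower on all 3 scales. A U at the 3' end was found in 34.5%, 29.8% and 39.5%, and the median length was 22 nucleotides in each group.

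Arm usage was compared next, because the ratio of the 5p to the 3p product of a hairpin is formed within a library. The library total then cancels, apart from the 1 CPM added to each arm. Which hairpins pass the limit still depends on the scale, as 42 passed it with TMM factors. For 22 hairpins both arms had a mean of at least 10 CPM in Hep-G2 and in at least 1 NEXTflex line. The log2 ratio of 5p to 3p differed for 19 of them (86.4% called), with 8 shifted toward 5p and 11 toward 3p in Hep-G2. Both Hep-G2 libraries lay above the range of the 7 NEXTflex libraries for 9 hairpins and below it for 10. For 8 hairpins the sign of the mean log2 ratio in Hep-G2 was not that of any NEXTflex line mean, where a ratio of 0 was counted as 3p. Among these 8 was miR-200a, for which ES-2 had no read of either arm. Another was miR-483, with both arms at 25.2 CPM or below in the NEXTflex libraries and no read in ES-2 replicate 1. For these hairpins the more abundant arm was poorly measured or not measured in NEXTflex lines. With line means as samples 15 of the 22 were called, and the 10 hairpins with the largest shifts described next were among them.

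MiR-455 showed the largest shift toward 5p. The log2 ratio of 5p to 3p was 3.12 and 2.95 in Hep-G2 and -4.57 to -3.28 in the NEXTflex libraries, a shift of 6.84 ± 0.21 (SE, adjusted p = 5.55e-05 with line means as samples, limma). The BE(2)-C libraries had 2.62 and 3.34, although the level of miR-455-5p itself was within the NEXTflex range there. With miR-455-3p at only 1.06 and 0.306 CPM, the BE(2)-C ratios depend on the 1 CPM added to each arm. MiR-32 had 1.02 and 0.90 in Hep-G2 and -2.72 to -1.59 in the NEXTflex libraries, and BE(2)-C had a mean of 1.88. MiR-200a had 3.45 and 3.34 in Hep-G2 and -3.58 to 0.72 in the NEXTflex libraries, but only A-549, with -1.78 and -3.58, held a measurable ratio there. The ES-2 libraries had no read of either arm, and in MV3 and PANC-1 each arm was below 1 CPM, so that the ratios of these 3 lines, and with them much of the shift of 4.12, rest on the 1 CPM added to each arm. In BE(2)-C, with both arms at 13.2 CPM or below, its ratio was -1.26 and 0.08, within the NEXTflex range.

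The ratio of miR-21-5p to its passenger arm was already high in the NEXTflex libraries, at 8.63 to 9.05, and reached 11.51 and 11.45 in Hep-G2, with 9.44 and 9.46 in BE(2)-C. MiR-221 was at -1.93 and -1.64 in Hep-G2 and -5.28 to -3.88 in the NEXTflex libraries. BE(2)-C had -2.23 and -0.54, with 5p at 1.20 and 0 CPM and 3p at 9.31 and 0.459 CPM. These BE(2)-C ratios therefore rest largely on the 1 CPM added to each arm.

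Toward 3p, let-7a shifted by -5.87 ± 0.21, from 8.24 to 9.91 in the NEXTflex libraries to 2.67 and 3.10 in Hep-G2, so that let-7a-5p remained the more abundant arm. Let-7a-5p sums copies on chromosomes 9, 11 and 22, while the separately named product let-7a-2-3p was left out of the ratio. A change in the use of copies can therefore not be told apart from a change in arms for let-7a. MiR-361 changed its dominant arm, with -4.12 and -4.04 in Hep-G2 against 0.50 to 1.26 in the NEXTflex libraries and -4.05 and -2.60 in BE(2)-C. MiR-30e changed it as well, with -1.59 and -1.34 in Hep-G2, 2.89 to 3.81 in the NEXTflex libraries and 0.66 and 1.51 in BE(2)-C. MiR-28 was at -4.03 and -4.05 in Hep-G2, -0.91 to -0.23 in the NEXTflex libraries, and -3.39 and -2.46 in BE(2)-C. MiR-374a was at -2.28 and -2.26 in Hep-G2, 0.54 to 0.93 in the NEXTflex libraries, and -0.04 and 1.19 in BE(2)-C.

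Several hairpins showed no or little shift. MiR-423, with -1.15 and -1.01 in Hep-G2 against -1.30 to -0.56, differed by -0.05 ± 0.09 (SE, adjusted p = 0.60, limma), and miR-194 by 0.37 ± 0.39 (SE, adjusted p = 0.41, limma). The 5p product of miR-194 comes from chromosomes 1 and 11 and its 3p product from chromosome 11 only, so this ratio also mixes copies. MiR-27a and miR-27b were called with shifts of only 0.48 and -0.65. The shift of miR-483 was 2.29 ± 0.96 and was not called (SE, adjusted p = 0.063, limma), although Hep-G2 was above all NEXTflex libraries, and with line means as samples it was (adjusted p = 0.0056). Hep-G2 and BE(2)-C share their preparation and are set against the same NEXTflex libraries, and the part of the preparation in the arm ratios was not tested.

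**Figure D5:**
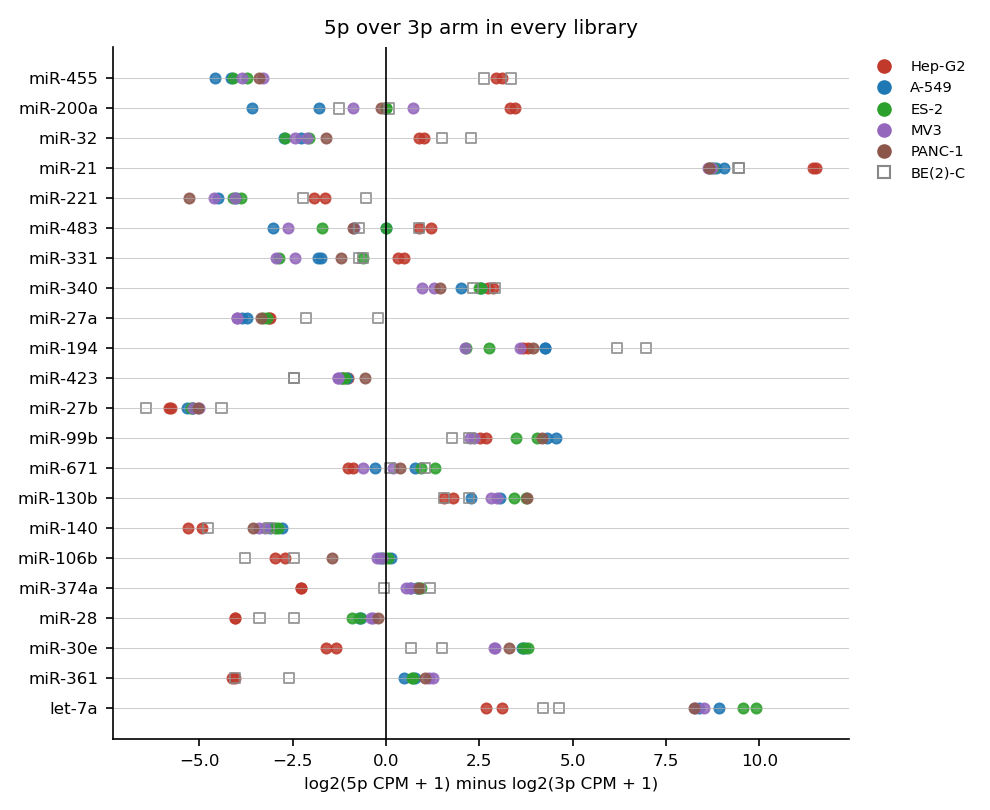
Log2 ratio of the 5p to the 3p product (x axis, with 1 CPM added to each) of the 22 hairpins (y axis), with 1 filled point per library of the 5 lines and open squares for the 2 BE(2)-C libraries, which entered no test. The Hep-G2 points of miR-455 stand at 3.12 and 2.95, right of the NEXTflex range of -4.57 to -3.28, and those of miR-361 at -4.12 and -4.04, left of 0.50 to 1.26.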

How the data were processed

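Small RNA-seq libraries of 6 untreated cell lines were grouped by their cell line label. Per the labels the authors used cutadapt 1.14, Bowtie2 2.3.2, SAMtools 1.5, featureCounts 1.5.3 and edgeR 3.30.3 with build hg38, without further parameters given in the sources used here. The values deposited by the authors for PANC-1 were CPM, while the other tables held a signal in which CPM had been divided by a TMM factor set within each table. All nonzero values (100%) were whole multiples of 1 read (tolerance 0.01), so whole reads were recovered, rows that repeat a mature miRNA were added up (167 miRNAs had several genomic copies on 392 of 2813 rows) and each library was rescaled to CPM, because the tables had been normalized separately.

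All miRNAs whose mean in any of the 5 lines reached 10 CPM were fitted with limma 3.58.1 (R 4.3.3) after log2(CPM + 1) (1 mean per line, eBayes with trend; two-sided contrast, 4 residual degrees of freedom from lines with 2 libraries, Benjamini-Hochberg over 470 miRNAs, threshold 0.05). PANC-1 added no spread, and for miRNAs read in PANC-1 alone the residual variance was 0. Arm ratios were fitted without trend over 22 hairpins. Alternatives used edgeR 4.0.16 and DESeq2 1.42.0 on recovered reads, other scales, filters and pseudocounts, line means as samples and each library left out. In simulated data with 200 of 468 miRNAs changed 4-fold, the main fit recovered 200 with 2 false calls. With TMM factors and with line means as samples 200 were recovered as well, with 4 and 3 false calls. The scale and the unit of replication, which changed the calls in the real data, thus made little difference there. The simulation therefore gives no error rate for the calls in the real libraries.

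Members and lists were chosen with earlier results of these data known. MiRNAs named were the 12 highest and 12 lowest on CPM among those called and non-overlapping on all 3 scales that reached 100 CPM in the mean of a line, the 10 most abundant of Hep-G2, all tested liver list members and up to 4 of the highest mean in other lists, the markers, and the 5 hairpins with the largest shift per direction. Some further members of these clusters and families were named after their values were seen. No pair of libraries of a line agreed within sampling noise (chi-square over its degrees of freedom 9.75 in ES-2 to 77.0 in Hep-G2). Hairpin positions are from GENCODE v44.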

Additional observations from a re-analysis of the deposited data

How the results depend on the processing

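The count of 437 called miRNAs (66 higher, 371 lower) changed most with the unit of replication. With the 5 line means as samples 78 were called (9 higher, 69 lower) on CPM, 61 (38 and 23) with TMM factors and 40 (13 and 27) with miR-148a-3p out of every total, and the last pair of fits was chosen after seeing the data. At unadjusted p under 0.05 these fits gave 147, 130 and 123, and 32 miRNAs were called on CPM and with TMM factors alike. The scale moved the directions: 113 were higher with miR-148a-3p out of every total, 150 were higher and 245 lower with TMM factors, 152 and 189 with edgeR on recovered reads, and 153 and 175 with DESeq2. A filter of at least 100 CPM left 248 miRNAs, of which 240 were called (32 higher, 208 lower), and without a filter 174 of 1413 were higher. Leaving out each library in turn gave 385 to 442 calls (55 to 68 higher, 329 to 374 lower), and 354 to 396 calls with TMM factors, which was added after seeing the data. Of 22 hairpins 17 to 20 were then called. With both arms at 100 CPM 3 hairpins were left and 2 called, and with the 10 CPM limit on the TMM scale, also added later, 35 of 42 were called. Fewer features were tested under the stricter filters.

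Directions that reversed were those of miR-21-5p, miR-30d-5p, miR-26a-5p, miR-182-5p and miR-183-5p, lower on CPM and higher otherwise. In this order their log2 differences were 0.87, 0.26, 0.20, 0.90 and 0.73 with miR-148a-3p out of every total, 1.89, 1.29, 1.22, 1.92 and 1.75 with TMM factors, 1.89, 1.29, 1.23, 1.93 and 1.76 with edgeR, and 2.15, 1.55, 1.48, 2.18 and 2.01 with DESeq2. With line means as samples on the first 2 of these scales the differences were the same and none of the 5 was called. MiR-194-3p, not called on CPM, was at -0.031 with a pseudocount of 5 and at -0.37 to 0.30 with a library left out, the lowest without PANC-1, but was called higher with miR-148a-3p out of every total (1.99), TMM factors (2.89), edgeR (3.05) and DESeq2 (3.32). The other 73 of 79 named differences and arm shifts kept their sign under the alternatives run for them. The 10 arm shifts were not run on recovered reads, deposited values, without a filter or without miR-148a-3p, and the 100 CPM filter left 64 of the 69 differences and 1 arm shift.

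The numbers 1 and 2 of the libraries did not pair them: deviations of same-numbered libraries correlated by -0.079 to 0.139 over 248 miRNAs. With the replicate block 432 miRNAs (65 higher, 367 lower) and 19 hairpins were called, and of the named miRNAs the call of miR-122-5p was lost (adjusted p = 0.054). Without a filter on low values miR-122-5p (adjusted p = 0.095) and miR-1-3p (0.054) were not called, and miR-1-3p was not called without either Hep-G2 library. The depth of the NEXTflex libraries limits statements on miRNAs below 2.56 CPM.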
